A study of Mus musculus with 15 samples.

Results

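The inflammasome and pyroptosis genes described here are 9 genes chosen by symbol: Nlrp3, Nlrc4, Aim2, Pycard, Casp1, Casp4, Casp8, Gsdmd and Ripk3. All 9 symbols had a row among the 23996 genes of the deposited RNA-seq table, and all 9 were among the 11258 genes kept because their mean over the groups was at least 0.5 FPKM. FPKM counts fragments relative to transcript length and to the mapped reads of the library, so that levels of different genes can be set side by side per length. The study asked how NELF, a complex that holds RNA polymerase II near promoters, shapes gene expression in mouse bone marrow-derived macrophages (BMDM). The 15 libraries fell into 5 groups of 3: Nelfb KO at rest, Nelfb KO after 0.5 h of LPS, and WT at rest, after 0.5 h of LPS and after 1 h of LPS. Nelfb KO cells came from mice with loxP sites in both Nelfb alleles and the Lyz2Cre transgene, which deletes in myeloid cells, and WT cells carried Lyz2Cre alone, all on C57BL/6. The age of the mice was not given in the sources used here. Bone marrow was cultured for 5 days with 10% serum and 10% supernatant of L929 cells, which supplies macrophage colony-stimulating factor, and LPS, the cell wall component of Gram-negative bacteria sensed by TLR4, was given at 10 ng/ml.

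An inflammasome is a cytosolic assembly in which a sensor protein that has met a danger or pathogen signal recruits an adaptor and activates caspase-1. The caspase then matures IL-1β and IL-18 and cuts gasdermin D, whose fragment opens pores in the plasma membrane and leads to pyroptosis, a lytic form of cell death. In macrophages the pathway is known for its need of priming, since the sensor NLRP3 and pro-IL-1β are made in larger amounts after Toll-like receptor signals. Cell death can also run through caspase-8 and, when caspase-8 is blocked, through the kinase RIPK3, which drives necroptosis.

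The promoters of Nlrp3, Casp4 and Pycard are shown because these 3 genes carried the largest differences described below. Each is the RefSeq sequence of GRCm38.p6 from 250 bases before to 50 bases after the transcription start, 5′ to 3′ on the strand of the gene. The windows are chr11:59542436-59542735 (plus strand), chr9:5308610-5308909 (plus strand) and chr7:127993818-127994117 (minus strand). Capitals mark matches to the motifs searched.
Nlrp3: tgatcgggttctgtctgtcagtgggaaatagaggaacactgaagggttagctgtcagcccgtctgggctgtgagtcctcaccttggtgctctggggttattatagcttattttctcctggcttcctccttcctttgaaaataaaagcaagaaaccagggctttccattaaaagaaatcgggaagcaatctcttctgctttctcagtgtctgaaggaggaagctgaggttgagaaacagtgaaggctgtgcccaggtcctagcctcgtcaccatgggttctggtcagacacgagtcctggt
Casp4: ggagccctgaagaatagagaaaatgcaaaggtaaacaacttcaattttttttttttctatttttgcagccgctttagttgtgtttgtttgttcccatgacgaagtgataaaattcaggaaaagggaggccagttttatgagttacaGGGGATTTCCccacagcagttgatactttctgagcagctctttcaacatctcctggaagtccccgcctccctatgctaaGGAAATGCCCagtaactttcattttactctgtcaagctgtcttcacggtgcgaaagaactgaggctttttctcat
Pycard: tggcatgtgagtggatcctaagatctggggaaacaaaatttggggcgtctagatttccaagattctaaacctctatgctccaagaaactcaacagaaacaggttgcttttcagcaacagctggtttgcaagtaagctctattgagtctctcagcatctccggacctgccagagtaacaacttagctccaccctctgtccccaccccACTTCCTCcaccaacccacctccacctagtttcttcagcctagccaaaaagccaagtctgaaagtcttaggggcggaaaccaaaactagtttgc

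The motifs were searched on both strands in every promoter window of the table, 32851 in all, of which 10 belonged to 8 of the 9 genes (all but Gsdmd). A motif of the NF-κB type, GGG, any 2 bases and then TTTCC, was found in 1.63% of all windows and, of the 9 genes, in Casp4, where it was matched by GGGGATTTCC at position -104 and, on the other strand, by GGAAATGCCC at position -25 from the start. A motif of the PU.1 type, GAGGAAGT, was in 3.2% of all windows and was matched in Pycard at position -44, on the other strand, and in Aim2 at position -113. The AP-1 motif TGANTCA (7.81% of all windows) and the TATA box TATAAA (13.6%) had no match in a window of these genes, and no match overlapped another. A match describes only the letters in the window, and no binding was measured here.

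The deposited table gives 1 FPKM value for each gene and group, the authors' mean over 3 libraries, so no value below has an SD and no test between groups was possible. Differences are therefore given as ratios of FPKM + 1, or as their log2, and a gene was counted as past the fold at a ratio of at least 1.4 (higher) or at most 0.6 (lower). These are the fold thresholds the study used, with p-values, for the genotypes and for 0.5 h of LPS. They were carried over here to the 1 h comparisons, for which the study set a threshold of 1.5-fold in WT at 1 h against rest, and Nlrp3 passes both there. The number of reads behind each value is unknown. Nelfb itself had 5.65 FPKM in resting Nelfb KO BMDM against 21.9 FPKM in resting WT BMDM, and 5.55 FPKM in Nelfb KO against 19.7 FPKM in WT at 0.5 h (log2 ratios -1.79 and -1.66), so transcripts of the gene were lower but not absent in the cells labelled KO. Of 8 macrophage markers, all 8 had at least 1 FPKM, with sums of 4053 to 4921 FPKM per group. These sums hide differences of single markers between genotypes, in both directions. At rest Mertk had 47.1 FPKM in Nelfb KO against 28.0 FPKM in WT, and Lyz2 had 41.6 against 19.7 FPKM. Emr1, Csf1r and Itgam were also higher in resting Nelfb KO, while Cd68, Fcgr1 and Cd14 were lower. The highest sum, in WT at 1 h, went with Cd14, at 1209 FPKM there against 431 FPKM in resting WT. Of 22 markers of other blood and stromal cells in the table, 5 reached 1 FPKM in any group, their sums were 83.5 to 146 FPKM, and most of this was S100a8, at 122 and 133 FPKM in Nelfb KO at rest and 0.5 h, against 98.8, 72.5 and 79.0 FPKM in WT at rest, 0.5 h and 1 h. S100a9, the partner of S100a8 in neutrophils, had at most 1.32 FPKM in any group, and the defining T, B, NK and dendritic cell markers were all below 1 FPKM. The part of these markers in the differences below was not tested. The FPKM sum of a group was lowest in WT at 0.5 h, 511973, and highest in resting WT, 615071. In bulk RNA, fewer cells of a type and less RNA per cell cannot be told apart.

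In resting WT BMDM the genes of caspase-1, the adaptor and the pore former had the highest levels of the 9 per length, and the sensors had lower ones. Casp1, the caspase that inflammasomes activate, had 71.9 FPKM and lay at percentile 89.0 of the kept genes. It was followed by Pycard (59.9 FPKM, percentile 87.1), which encodes the adaptor ASC, and by Gsdmd (49.9 FPKM, percentile 84.8), the pore former. Casp8 and Casp4 came next with 34.8 and 26.0 FPKM. The sensors and the necroptosis kinase had 11.2 FPKM for Nlrp3, 11.0 FPKM for Ripk3, 8.64 FPKM for Aim2 and 5.16 FPKM for Nlrc4. Without values per library it cannot be said which neighbours in this order differed beyond their spread, and Nlrp3 and Ripk3 were the closest pair. After 1 h of LPS Nlrp3 stood first of the 9, at 132 FPKM, and its rank among all genes of the table was 684 in WT at 1 h against 5341 in resting WT.

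**Figure D1:**
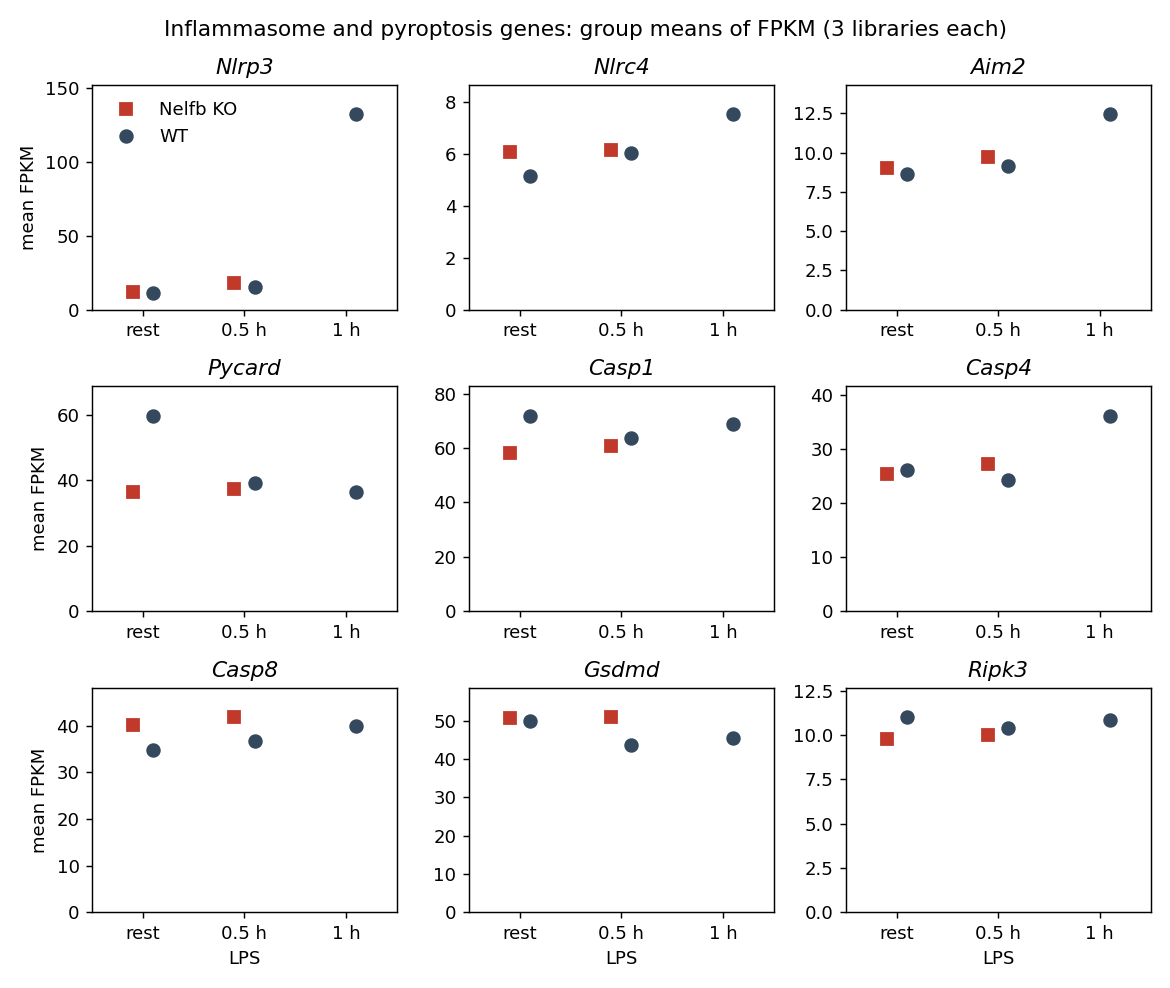
Mean FPKM (y axis, from 0, own scale per gene) of the 9 genes in each group by time of LPS (x axis), with squares for Nelfb KO and circles for WT; each point is the authors' mean of 3 libraries and has no error bar. Nlrp3 stands at 132 FPKM in WT at 1 h and at 11.2 to 17.98 FPKM in the other 4 groups, while Pycard is at 59.9 FPKM in resting WT and at 36.5 to 39.1 FPKM elsewhere.

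Among the sensors, Nlrp3 carried the largest LPS response. Nlrp3, which detects potassium loss and membrane damage, had 12.2 and 17.98 FPKM in Nelfb KO at rest and 0.5 h, against 11.2, 15.5 and 132 FPKM in WT at rest, 0.5 h and 1 h. The 1 h group stood far above the other 4 groups, which lay within 11.2 to 17.98 FPKM. The ratio of FPKM + 1 was 10.9 for WT at 1 h over rest, a value at percentile 99.5 of the kept genes, and 8.05 over WT at 0.5 h. At 0.5 h the ratio to rest was 1.44 in Nelfb KO, past the fold, and 1.36 in WT, just short of it. A threshold of 1.5-fold would count neither, but the ratios lay at percentiles 98.8 and 98.6 of the kept genes. The difference of these log2 responses, Nelfb KO minus WT, was 0.09. The gene spans chr11:59542686-59566956 (plus strand) in mm10, the build of the table.

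Nlrc4, the sensor that works with NAIP proteins on bacterial flagellin and secretion systems, had 6.05 and 6.15 FPKM in Nelfb KO at rest and 0.5 h, against 5.16, 6.02 and 7.52 FPKM in WT at rest, 0.5 h and 1 h. Aim2, the sensor of cytosolic double-stranded DNA, had 8.99 and 9.73 FPKM in Nelfb KO at rest and 0.5 h, against 8.64, 9.18 and 12.4 FPKM in WT at rest, 0.5 h and 1 h. Both were highest in WT at 1 h, with ratios to rest of 1.38 for Nlrc4 and 1.39 for Aim2, just below the fold of 1.4, and both pass it when 0.1 FPKM is added in place of 1. Neither gene was past the fold in any of the other comparisons. Nlrc4 lies at chr17:74426295-74459108 (minus strand), with the processed pseudogene CT033749.1 inside it on the same strand, and Aim2 at chr1:173420604-173466036 (plus strand).

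Pycard was the gene in which resting WT stood apart. The adaptor, which links sensors to caspase-1, had 36.5 and 37.3 FPKM in Nelfb KO at rest and 0.5 h, against 59.9, 39.1 and 36.6 FPKM in WT at rest, 0.5 h and 1 h. Resting WT was thus the high group and the other 4 lay within 36.5 to 39.1 FPKM. The ratio of FPKM + 1 was 0.617 for Nelfb KO over WT at rest. Against resting WT it was 0.658 for WT at 0.5 h and 0.617 for WT at 1 h, so that none of the 3 ratios reached 0.6, while a symmetric threshold of 1.5-fold would count all 3 as lower. These 3 comparisons share the resting WT group and are not independent. At 0.5 h the ratio of Nelfb KO to WT was 0.956. In Nelfb KO the log2 ratio of 0.5 h to rest was 0.03 (-0.01 with median scaling or quantile normalization). The genotype difference in the LPS response was thus 0.63 on the log2 scale (a ratio of 1.55). It was the only value of the 9 genes past the fold in that contrast. The contrast also contains the resting WT group, so it is not independent of the 3 comparisons above.

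The gene is short, 2495 bases at chr7:127991373-127993867 (minus strand), and 4.44% of the kept genes have a shorter locus. Short genes as a class had higher values in resting WT: in the shortest 10% of the kept genes the median log2 ratio was -0.21 for Nelfb KO over WT at rest, and relative to resting WT it was -0.25 at 0.5 h and -0.33 at 1 h in WT. In the longest 10% the same medians were 0.08, 0.12 and 0.16. At 0.5 h the medians of Nelfb KO over WT in the shortest and longest 10% were 0.07 and -0.01. The log2 ratios of Pycard, -0.70, -0.60 and -0.70 in the first 3 comparisons and -0.07 at 0.5 h, had the sign of the medians of the shortest 10% in the comparisons with resting WT and were larger in size. Of the 500 kept genes nearest to Pycard in locus length, 13.2% had a log2 ratio at or below that of Pycard for Nelfb KO over WT at rest, and 16.2% and 16.4% did so for WT at 0.5 h and at 1 h over rest. Among all kept genes Pycard lay at percentiles 4.33, 4.05 and 4.03 in these comparisons. In the genotype difference 80.2% of the 500 genes lay at or below Pycard, which was at percentile 95.1 of all kept genes. Pycard was thus less far out among genes of like length than among all genes, and these shares are a description with no test. GENCODE M21 places Gm45205, a gene model on the opposite strand, over Pycard, and since use of strand in the counting was not stated, reads of both cannot be told apart.

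**Figure D2:**
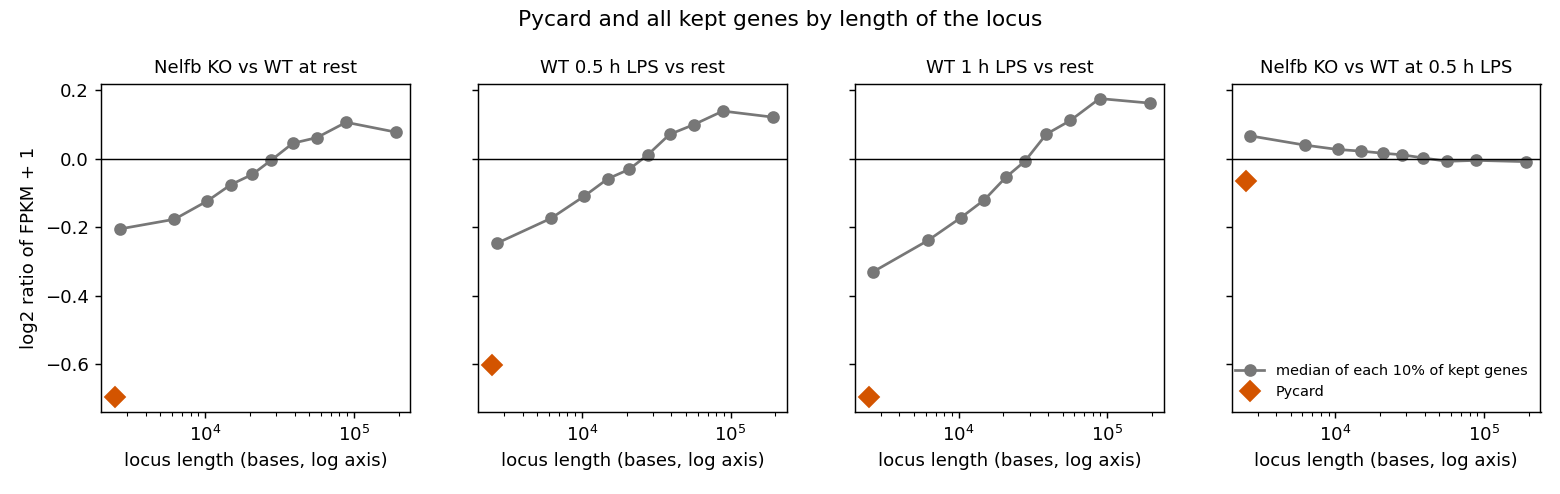
Log2 ratio of FPKM + 1 (y axis) against locus length in bases (x axis, log scale), with grey points for the median of each of 10 bins of the kept genes by length and a diamond for Pycard, in 4 comparisons. In the 3 comparisons with resting WT the medians are lower for shorter loci (-0.21 in the shortest and 0.08 in the longest 10% for Nelfb KO over WT at rest) and Pycard lies below them, while at 0.5 h they lie near 0.

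The inflammatory caspases differed less between groups. Casp1 had 58.2 and 60.6 FPKM in Nelfb KO at rest and 0.5 h, against 71.9, 63.7 and 68.6 FPKM in WT at rest, 0.5 h and 1 h. Its widest ratio was the log2 value of -0.30 for Nelfb KO against WT at rest. The 500 kept genes nearest to Casp1 in locus length had a median of -0.15 in this comparison, and 29.4% of them lay at or below Casp1. Both Nelfb KO groups of Casp1 lay below all 3 WT groups, and no ratio of Casp1 was past the fold. This order was not particular to Casp1, since other genes below had a like one, and its share among the kept genes was not counted. Casp4, which encodes the mouse sensor of cytosolic LPS that cuts gasdermin D directly, had 25.4 and 27.1 FPKM in Nelfb KO at rest and 0.5 h, against 26.0, 24.2 and 36.2 FPKM in WT at rest, 0.5 h and 1 h. Casp4 was highest in WT at 1 h, where its ratio was 1.48 against 0.5 h, past the fold, and 1.38 against rest, short of it. With quantile normalization or a threshold of 1.5-fold the call of Casp4 for 1 h against 0.5 h was lost. Casp1 (chr9:5298517-5307281) and Casp4 (chr9:5308860-5336791) lie in tandem on the plus strand with 1578 bases between them. At 1 h against 0.5 h the log2 ratio was 0.11 for Casp1 (-0.04 with quantile normalization) and 0.56 for Casp4. Casp1, Casp4 and other caspase genes resemble each other in sequence, and the authors kept uniquely mapped reads, so that reads shared between them are not in these values.

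Casp8, the initiator caspase of death receptor signalling that also restrains necroptosis, had 40.1 and 41.9 FPKM in Nelfb KO at rest and 0.5 h, against 34.8, 36.7 and 39.9 FPKM in WT at rest, 0.5 h and 1 h. The log2 ratio of Nelfb KO to WT was 0.20 at rest and 0.19 at 0.5 h, values inside the fold. Both Nelfb KO groups lay above all 3 WT groups, though barely so for Nelfb KO at rest (40.1 FPKM) and WT at 1 h (39.9 FPKM). The share of the kept genes with such an order was not counted. Casp8 lies at chr1:58795374-58847503 (plus strand), with the gene model Gm37760 of GENCODE M21 overlapping it.

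Gsdmd and Ripk3 were the steadiest of the 9. Gsdmd, the pore former, had 50.7 and 51.0 FPKM in Nelfb KO at rest and 0.5 h, against 49.9, 43.7 and 45.5 FPKM in WT at rest, 0.5 h and 1 h. Ripk3, the necroptosis kinase, had 9.76 and 10.0 FPKM in Nelfb KO at rest and 0.5 h, against 11.0, 10.4 and 10.8 FPKM in WT at rest, 0.5 h and 1 h. Like Casp1 and Casp8, these genes had both Nelfb KO groups outside the WT range, above it for Gsdmd and below it for Ripk3. The margins were narrow, 50.7 against 49.9 FPKM for Gsdmd and 10.0 against 10.4 FPKM for Ripk3. The share of the kept genes with such orders was not counted. Over the 5 groups the log2 values of FPKM + 1 spanned 0.22 for Gsdmd and 0.16 for Ripk3, against 3.45 for Nlrp3 and 0.70 for Pycard. The remaining genes spanned 0.56 (Casp4), 0.48 (Aim2), 0.47 (Nlrc4), 0.30 (Casp1) and 0.26 (Casp8). Gsdmd lies at chr15:75862339-75867404 (plus strand) and Ripk3 at chr14:55784995-55788857 (minus strand).

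The comparison of Nelfb KO with WT at rest asked what loss of Nelfb does to the pathway before stimulation. None of the 9 genes was past the fold in either direction, where 1.63% of the kept genes were higher and 3.61% were lower (2.14% and 3.01% with median scaling, 2.92% and 2.48% with quantile normalization). Log2 ratios ran from -0.70 (Pycard) to 0.20 (Casp8), with a median of 0.02 over the 9 genes and of -0.02 over all kept genes. At 0.5 h of LPS again none of the 9 was past the fold, beside 2.03% (higher) and 1.36% (lower) of the kept genes. There the log2 ratios ran from -0.07 (Casp1) to 0.22 (Gsdmd), with a median of 0.08 over the 9 and of 0.01 over all kept genes. Counts of 0 among 9 genes are near these backgrounds and carry no result about the genes as a group. The sizes of all 9 ratios at 0.5 h were inside the range from the 5th to the 95th percentile of the kept genes, -0.36 to 0.31.

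The LPS comparisons asked which of the genes respond early. In WT at 0.5 h against rest none of the 9 was past the fold (background 1.09% higher and 2.07% lower, or 1.48% and 1.29% with quantile normalization). In WT at 1 h against rest 1 of 9, Nlrp3, was higher and none was lower, with 6.26% of the kept genes higher and 3.22% lower. In WT at 1 h against 0.5 h 2 of 9, Nlrp3 and Casp4, were higher (4.17% of the kept genes) and none was lower (0.693%). In Nelfb KO at 0.5 h against rest 1 of 9, Nlrp3, was higher (1.32%) and none lower (0.222%). In the genotype difference of the 0.5 h response 1 of 9, Pycard, was higher (8.8%) and none lower (0.382%). The medians over the 9 genes were small in all of these, 0.19 in WT at 1 h against rest, where all kept genes had -0.02. With so few genes, the counts stand for the genes named and not for the set.

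**Figure D3:**
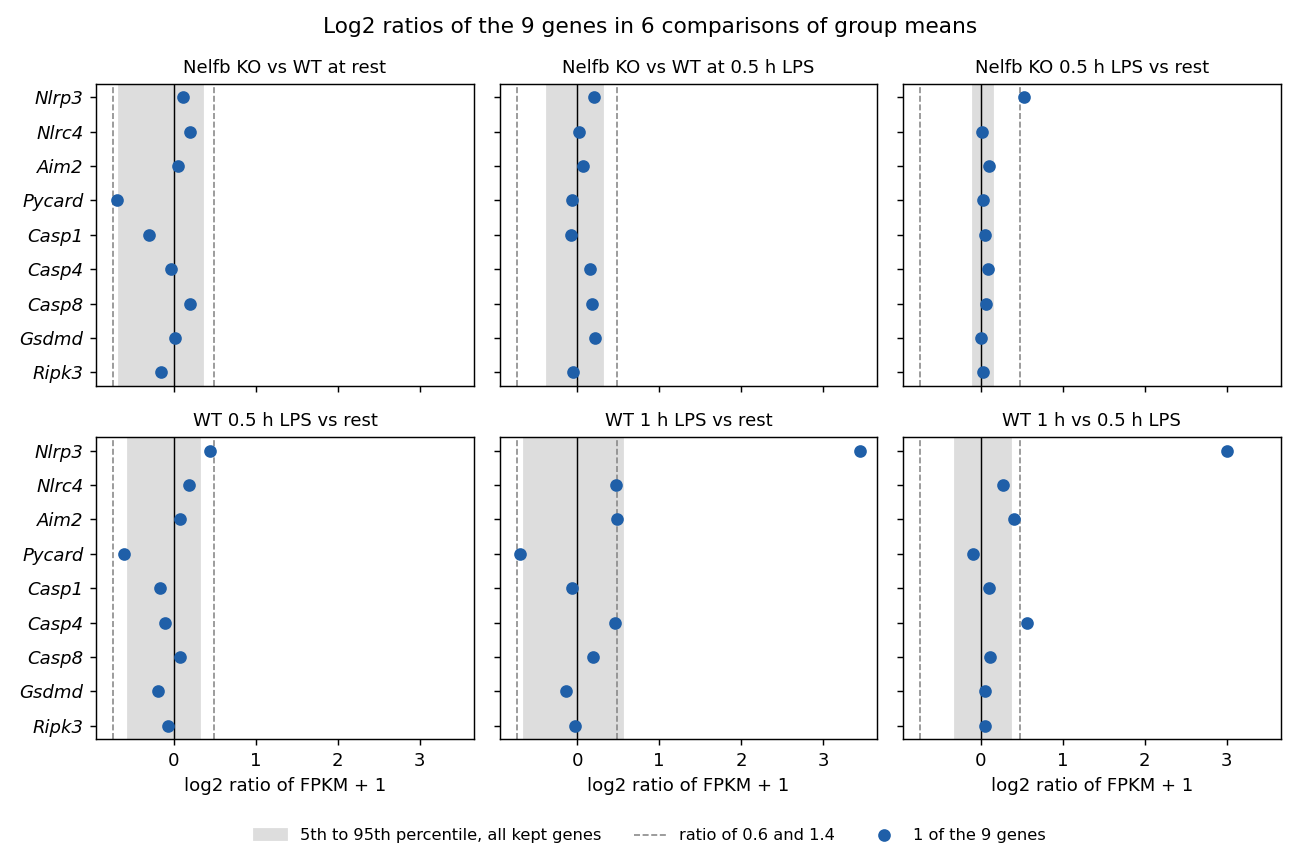
Log2 ratio of FPKM + 1 (x axis) of each of the 9 genes (rows) in 6 comparisons of group means, with the grey band for the 5th to 95th percentile of all kept genes and dashed lines at ratios of 0.6 and 1.4. Nlrp3 lies at 3.45 for WT at 1 h against rest and at 3.01 for 1 h against 0.5 h, and Pycard lies just below the band where resting WT is compared. The other genes lie between -0.30 and 0.56, with Casp4 (0.56) and Aim2 (0.40) above the band for WT at 1 h against 0.5 h.

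The genes whose profile over the 5 groups was nearest to that of Nlrp3 were also highest in WT at 1 h. Among the 7728 kept genes whose mean reached 5 FPKM, the smallest Euclidean distance between centred log2 profiles was 0.459 for Gbp5, which encodes a guanylate-binding protein. Gbp5 had 1.37 and 1.81 FPKM in Nelfb KO at rest and 0.5 h, against 1.42, 1.52 and 27.2 FPKM in WT at rest, 0.5 h and 1 h. Next came the chemokine gene Ccl12 (distance 0.514) and Dusp5, a phosphatase gene of the MAP kinase pathway (distance 0.539). In WT at rest, 0.5 h and 1 h Ccl12 had 2.78, 3.58 and 25.2 FPKM and Dusp5 had 3.26, 5.47 and 38.6 FPKM. In Nelfb KO at rest and 0.5 h Ccl12 had 1.96 and 3.96 FPKM and Dusp5 had 3.40 and 8.25 FPKM. Both genes were thus already higher at 0.5 h than at rest in both genotypes. The likeness rests on 5 values a gene and is a description.

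Around the 9 genes, 73 further genes of the pathway were listed in 7 groups, of which 71 were in the table and 61 were kept. The lists were chosen with earlier results of these data known, so the counts below do not test whether the pathway responds. Past the fold in WT at 1 h against rest were 14 higher and 1 lower (6.26% and 3.22% of all kept genes), with a median log2 ratio of 0.14 over the 61. At 0.5 h, 4 were higher and none lower in WT against rest (1.09% and 2.07% of all kept genes). In Nelfb KO against WT at rest none of the 61 was higher and 1 was lower (1.63% and 3.61% of all kept genes), and at 0.5 h 4 were higher and none lower (2.03% and 1.36%), in both cases with a median log2 ratio of -0.01.

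The largest ratios of the pathway in WT at 1 h against rest were those of the cytokine genes Il1b and Il1a. Il1b, the gene of pro-IL-1β, had 2.83 and 59.9 FPKM in Nelfb KO at rest and 0.5 h, against 3.21, 20.6 and 624 FPKM in WT at rest, 0.5 h and 1 h. Its ratio of FPKM + 1 was 148 for WT at 1 h over rest and 2.82 for Nelfb KO over WT at 0.5 h. Il1a had 0.674 and 4.11 FPKM in Nelfb KO at rest and 0.5 h, against 1.35, 2.44 and 129 FPKM in WT at rest, 0.5 h and 1 h. Il1b and Il1a were thus past the fold in Nelfb KO against WT at 0.5 h, where Nlrp3, with a log2 ratio of 0.20, was not, and the difference between the genes was not tested. Il1rn, the gene of the antagonist of the IL-1 receptor, had 28.9 and 31.5 FPKM in Nelfb KO at rest and 0.5 h, against 34.8, 37.3 and 106 FPKM in WT at rest, 0.5 h and 1 h. Il18, the other cytokine that caspase-1 matures, was chosen for naming after its values were seen. It had 7.82 and 7.28 FPKM in Nelfb KO at rest and 0.5 h, against 7.90, 6.69 and 7.54 FPKM in WT at rest, 0.5 h and 1 h, and was past the fold in no comparison.

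Of 13 kept sensors and partners outside the 9, 1 was past the fold in WT at 1 h against rest. This was Mefv, the gene of the pyrin sensor, which had 10.2 and 11.5 FPKM in Nelfb KO at rest and 0.5 h, against 10.7, 11.5 and 40.1 FPKM in WT at rest, 0.5 h and 1 h. Ifi204, an interferon-inducible relative of Aim2, had 120 FPKM in WT at 1 h against 82.0 FPKM at 0.5 h and was past the fold there. Nek7, which binds NLRP3 on activation, had 45.8 and 45.3 FPKM in Nelfb KO at rest and 0.5 h, against 37.6, 47.2 and 48.5 FPKM in WT at rest, 0.5 h and 1 h. Naip2, the sensor partner of Nlrc4 with the highest level of its family, lay within 24.1 to 27.0 FPKM in all 5 groups. The Naip genes are close copies of each other, so that their values are uncertain.

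Of 15 kept genes of licensing and upstream signals, 5 were higher and 1 was lower in WT at 1 h against rest. Gbp5 and Gbp2 were among the higher ones, and Gbp2 had 24.9 FPKM in WT at 1 h against 10.0 FPKM at rest. Irf1, the transcription factor that governs guanylate-binding protein genes, had 26.3 and 87.6 FPKM in Nelfb KO at rest and 0.5 h, against 22.5, 39.7 and 147 FPKM in WT at rest, 0.5 h and 1 h. It was the only gene of this list past the fold in Nelfb KO against WT at 0.5 h, with a ratio of 2.18. Txnip, the thioredoxin-binding protein that has been linked to NLRP3, was the lower gene, at 22.3 FPKM in WT at 1 h against 80.3 FPKM at rest.

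Levels of the pore formers other than Gsdmd and of their partners covered a wide range. Ninj1, whose product ruptures the membrane of dying cells, had 396 and 401 FPKM in Nelfb KO at rest and 0.5 h, against 445, 332 and 370 FPKM in WT at rest, 0.5 h and 1 h. Chmp4b and Chmp3, of the ESCRT machinery that repairs gasdermin pores, had 202 and 61.7 FPKM in resting WT. Chmp4b had 167 and 174 FPKM in Nelfb KO at rest and 0.5 h, and 150 and 159 FPKM in WT at 0.5 h and 1 h. Of this list only Chmp4b was past the fold in any contrast. This was the genotype difference, with a log2 value of 0.49. Its ratio of 1.403 was barely past the threshold of 1.4, and 8.8% of the kept genes were higher there. Dfna5, the older symbol of the gasdermin E gene, lay within 1.91 to 2.09 FPKM in all 5 groups. Gsdma had at most 0.0245 FPKM and Gsdmc at most 0.0461 FPKM in any group.

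Of 12 kept genes of the necroptosis and caspase-8 platform, 5 were higher in WT at 1 h against rest. Tnfaip3, the gene of the ubiquitin-editing enzyme A20, had 12.6 and 71.1 FPKM in Nelfb KO at rest and 0.5 h, against 13.3, 43.0 and 416 FPKM in WT at rest, 0.5 h and 1 h. Cflar, which encodes the caspase-8 partner cFLIP, had 122 FPKM in WT at 1 h against 25.0 FPKM at rest, and Birc3, of the cIAP ubiquitin ligases, had 83.8 FPKM in WT at 1 h against 25.7 FPKM at rest. Casp8 itself had a log2 ratio of 0.19 in the same comparison. Zbp1, the nucleic acid sensor upstream of RIPK3, was the only listed gene past the fold in Nelfb KO against WT at rest. It had 18.8 FPKM in Nelfb KO and 32.4 FPKM in WT at rest, and 18.5 and 24.1 FPKM at 0.5 h. In WT at 1 h it had 31.1 FPKM. The ratio of Nelfb KO to WT was 0.593 at rest, close to the threshold of 0.6, and 0.779 at 0.5 h. Calls of listed genes under the alternative scalings are not given here. Mlkl, the substrate of RIPK3, was named after its values were seen, and had 8.86 and 9.07 FPKM in Nelfb KO at rest and 0.5 h, against 13.9, 11.8 and 13.1 FPKM in WT at rest, 0.5 h and 1 h, a ratio of 0.664 at rest.

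**Figure D4:**
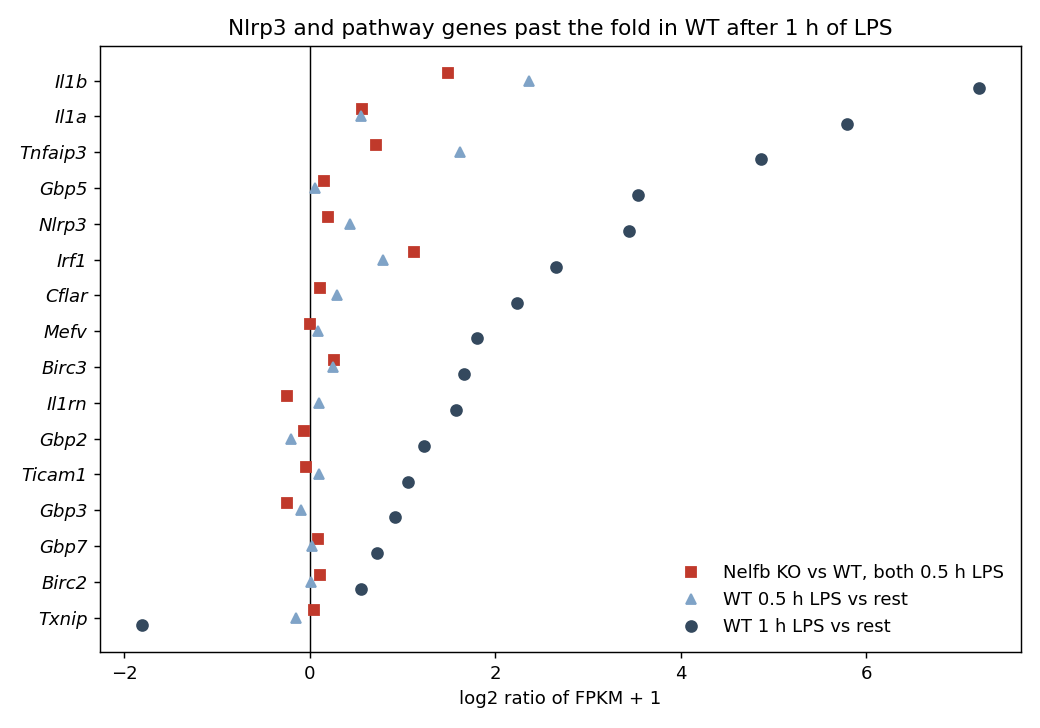
Log2 ratio of FPKM + 1 (x axis) of the 16 pathway genes past the fold in WT at 1 h against rest, Nlrp3 included (rows), with squares for Nelfb KO against WT at 0.5 h, triangles for WT at 0.5 h against rest and circles for WT at 1 h against rest. Il1b leads at 7.21 for WT at 1 h, Nlrp3 lies at 3.45, and at 0.5 h the squares of Il1b (1.49), Irf1 (1.12), Tnfaip3 (0.71) and Il1a (0.57) lie to the right of the others.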

How the data were processed

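Polyadenylated RNA of 15 BMDM libraries was prepared with a TruSeq kit and sequenced in pairs. Per the labels and the submitters' processing notes, CASAVA 1.8 was used, reads were mapped to mm10 with TopHat2 2.1.0, keeping unique alignments, and FPKM came from Cuffdiff of Cufflinks 2.2.1. The FPKM values were deposited by the authors as 1 mean per gene and group, so the 3 libraries of a group could not be compared and the depth behind a value is unknown. The deposited table also holds, for 4 comparisons, the authors' ratios, p-values and q-values, none of which was used. Of the group columns, 3 are repeated, and 17 genes (0 of the 9) have another value there; the first copy was used. One item is not reported here.

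Kept genes averaged 0.5 FPKM or more across groups, and ratios took FPKM plus 1 (pseudocount), which understates the change of low genes. Ratios of 1.4 or more and of 0.6 or less were counted. The script was tested on simulated data. All 9 genes are named; of each pathway list, genes past the fold or with the highest FPKM are named, up to 4, and Il18 and Mlkl beside them; genes of like profile were sought for Nlrp3 alone, since only its log2 values spanned at least 1. Members and lists were chosen with earlier results of these data known. Quantile normalization, median scaling, a minimum of 1 FPKM or none, 0.1 FPKM as the pseudocount, a 1.5-fold threshold and the second copy of repeated columns served as alternatives. Loci are those of the table, overlaps came from GENCODE M21 and promoters from RefSeq (GRCm38.p6). Computation used numpy 2.4.6 and pandas 2.3.3 under Python 3.11.15, and matplotlib 3.10.9 for plots.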

Additional observations from a re-analysis of the deposited data

How the results depend on the processing

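Of the 63 log2 ratios of the 9 genes, 7 changed sign under at least 1 of the 7 alternatives, 5 with median scaling and 7 with quantile normalization. None of them was past the fold in either setting, and their sizes were at most 0.11 as reported and 0.04 after scaling. They were Casp4 in Nelfb KO against WT at rest, Casp1 and Gsdmd in WT at 1 h against 0.5 h (quantile normalization only), Nlrc4, Pycard and Gsdmd in Nelfb KO at 0.5 h against rest, and Aim2 in the genotype difference. No count of genes past the fold moved with no filter, with a filter at 1 FPKM, with median scaling or with the second copy of the repeated columns. With a threshold of 1.5-fold either way, Pycard became lower in Nelfb KO against WT at rest, in WT at 0.5 h against rest and in WT at 1 h against rest (1 of 9 each, where 6.9%, 4.44% and 6.67% of the kept genes were lower), Nlrp3 alone remained for WT at 1 h against 0.5 h (1 of 9, 3.53% of the kept genes), and for Nelfb KO at 0.5 h against rest the count was 0 (1.2%). With a pseudocount of 0.1, 3 of 9 (Nlrp3, Nlrc4 and Aim2) were higher in WT at 1 h against rest, where 8.63% of the kept genes were. With quantile normalization 1 of 9 (Nlrp3; 3.86% of the kept genes) was higher in WT at 1 h against 0.5 h, where Casp4 had a log2 ratio of 0.48. All 90 member levels under median scaling and quantile normalization stayed within 1.5 times the deposited value. No paired analysis was possible because the table holds 1 mean per group and no values of single libraries, and for the same reason no library could be left out and no spread, error or test could be given. Depth per library was not used here, so no limit can be set for low values such as those of Gsdma.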

Other observations

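The listed caspases other than Casp1, Casp4 and Casp8 and the listed inhibitors of the pathway had no gene past the fold in any comparison. Of the other caspases, 5 of 7 were kept. Casp6 had 16.4 and 16.8 FPKM in Nelfb KO at rest and 0.5 h, against 14.8, 13.8 and 13.6 FPKM in WT at rest, 0.5 h and 1 h. Both Nelfb KO groups lay above all 3 WT groups for Casp6, an order whose share among the kept genes was not counted. Casp12 had at most 0.231 FPKM in any group and Casp14 was listed at 0.

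Of the inhibitors, 7 of 8 were kept. Bcl2l1, which encodes the survival protein Bcl-xL, had 20.4 and 21.0 FPKM in Nelfb KO at rest and 0.5 h, against 32.0, 29.0 and 26.7 FPKM in WT at rest, 0.5 h and 1 h, so that both Nelfb KO groups lay below all 3 WT groups. Map1lc3b, a core autophagy gene, had 148 and 147 FPKM in Nelfb KO at rest and 0.5 h, against 136, 123 and 120 FPKM in WT at rest, 0.5 h and 1 h. Lyz2, the locus that drives the Cre of both genotypes, had 41.6 and 55.5 FPKM in Nelfb KO at rest and 0.5 h, against 19.7, 23.3 and 28.5 FPKM in WT at rest, 0.5 h and 1 h. Such orders were not particular to the genes for which they are stated. Among others, both Nelfb KO groups also lay below all 3 WT groups for Mlkl, Zbp1 and Il1rn, and above them for Map1lc3b and Lyz2. None of these differences was tested, and the share of the kept genes with such orders was not counted.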
